A study of Mus musculus with 9 samples.

Results

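Transcription factors are the proteins that switch genes on or off by binding DNA, and in sensory ganglia they set and maintain which kind of neuron a cell becomes. The 10 genes described here, Foxp2, Maf, Etv1, Zfp521, Nr2f2, Dach1, Bhlha9, Lcorl, Shox2 and Cux2, code for transcription factors or co-regulators. They were selected from the 21536 genes of the trigeminal count table because earlier results of these data gave them uneven levels between kinds of trigeminal neuron. The level of each gene across neuron groups therefore chose it, and that pattern is given as a description with no test.

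Trigeminal ganglia hold the cell bodies of the sensory neurons of the face and mouth. Ganglia of wild-type FVB/N mice, which the sample labels give as 3 to 6 weeks old, were dissociated and depleted of non-neuronal cells, and single cells were captured with barcoded beads by Dropseq in 9 runs that each pooled many animals of both sexes. The deposited values count distinct transcripts (unique molecular identifiers, UMIs) per gene and cell barcode. Barcodes do not name their run, so all cells form 1 pooled sample. No replicate error can therefore be given, and groups were compared by their values alone, without tests.

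The table held 6997 barcodes and 30491529 UMIs, with a median of 2031 UMIs per barcode (range 1000 to 190815). A barcode was kept as a neuron when it had 500 to 7500 genes, a UMI of at least 3 of the 6 neuronal genes Tubb3, Scn9a, Snap25, Nefl, Nefm and Uchl1, and none of the epithelial gene Epcam. This kept 3855 neurons (55.1%) with 20924276 UMIs, a median of 3014 UMIs and a median of 1755 genes. The same barcode was listed in more than 1 column 6 times, and 11 of those 12 columns were neurons. Of the neurons, 106 also carried markers of olfactory neurons and 86 those of central neurons. Leaving out the 192 neurons of these sets, or the 12 columns, moved no log2 ratio of the 10 genes beyond its counting interval, although without the 192 the Calca group passed the Trpm8 group for Nr2f2.

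Neurons were put in the first of 7 groups whose marker they met. The Trpm8 group (2 or more UMIs of the cooling-activated channel) held 244 neurons with a median of 5671 UMIs. The Mrgprd group (2 or more UMIs of a receptor of non-peptidergic nociceptors) held 379, the Mrgpra3 group (at least 1 UMI of an itch receptor) 49, and the Nppb group (2 or more UMIs of the itch neuropeptide) 57. The Cd34 group (at least 1 UMI of a surface antigen of touch-sensing C-fibres) held 320 neurons. The Nefh group (5 or more UMIs of the neurofilament heavy chain, with no Trpv1) held 450, and the Calca group (5 or more UMIs of the CGRP gene, with at least 1 of the heat-activated channel Trpv1) held 916. The other 1440 neurons, at a median of 1826.5 UMIs, matched no group. More than 1 rule was met by 349 neurons, and median UMIs in the groups ran from 3406 in Nppb to 5835.5 in Cd34.

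Levels are given as CPM, a gene's share of all UMIs of the group scaled to a total of 1000000, followed in parentheses by an exact Poisson 95% interval. Ratios of levels carry exact conditional binomial intervals and shares of neurons exact binomial (Clopper-Pearson) intervals. These intervals cover counting error only, since UMIs of 1 neuron are not independent and no spread between animals can be seen. A limit given beside a count of 0 is on the share of neurons in which a UMI is found at this depth, not on the share that expresses the gene. A gene is called restricted when its highest group has at least 4 times the level of all other neurons, with 5 CPM added to both sides.

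By the GENCODE vM21 annotation of the mouse GRCm38 assembly, the genes lie on different chromosomes apart from Lcorl and Cux2. Foxp2 spans chr6:14901349-15441977 on the plus strand and Maf chr8:115682942-115707794 on the minus strand. Etv1 spans chr12:38779380-38870484 (plus), Nr2f2 chr7:70351944-70366735 (minus), Dach1 chr14:97786853-98169765 (minus) and Bhlha9 chr11:76672470-76673676 (plus). Lcorl spans chr5:45697181-45857615 (minus), Cux2 chr5:121856366-122050102 (minus), Shox2 chr3:66971727-66981771 (minus) and Zfp521 chr18:13687013-13972787 (minus). No gene of the count table overlaps any of them on the same strand. On the opposite strand Shox2 overlaps Rsrc1, which had 2377 UMIs in neurons, Lcorl overlaps Ncapg with 79, and Maf and Cux2 overlap Gm15655 and Gm15637 with 6 and 2 UMIs. Whether counting used strand is not given in the sources used here.

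With the 4-fold rule, 7 of the 10 genes were called restricted, and the same rule called 3.12% of the 12100 genes tested (378 genes with at least 50 UMIs in neurons, the genes of the group rule left out). As the levels across groups chose the genes, nothing is read from that contrast. The 7 were Foxp2, led by the Trpm8 group, Maf and Shox2 by Nefh, Zfp521 and Bhlha9 by Cd34, Etv1 by Mrgpra3 and Lcorl by Calca. Foxp2, Maf and Etv1 stayed above 4-fold (a log2 ratio of 2) under all 14 alternatives tried. Lcorl fell under it in 4 of them (1.65 to 1.90), Zfp521 in 2 (1.5 when counted once per neuron and 1.87 after thinning to 1000 UMIs), Shox2 in 2 (1.60 and 1.88) and Bhlha9 in 1 (1.87 when counted once per neuron). Dach1 and Cux2 were highest in the Nefh group but were under 4-fold on this scale, although Dach1 passed it (2.21) with a pseudocount of 1 CPM. For Nr2f2 the word restricted does not describe the data, because the Trpm8 and Calca groups had levels that did not differ beyond counting error.

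**Figure D1:**
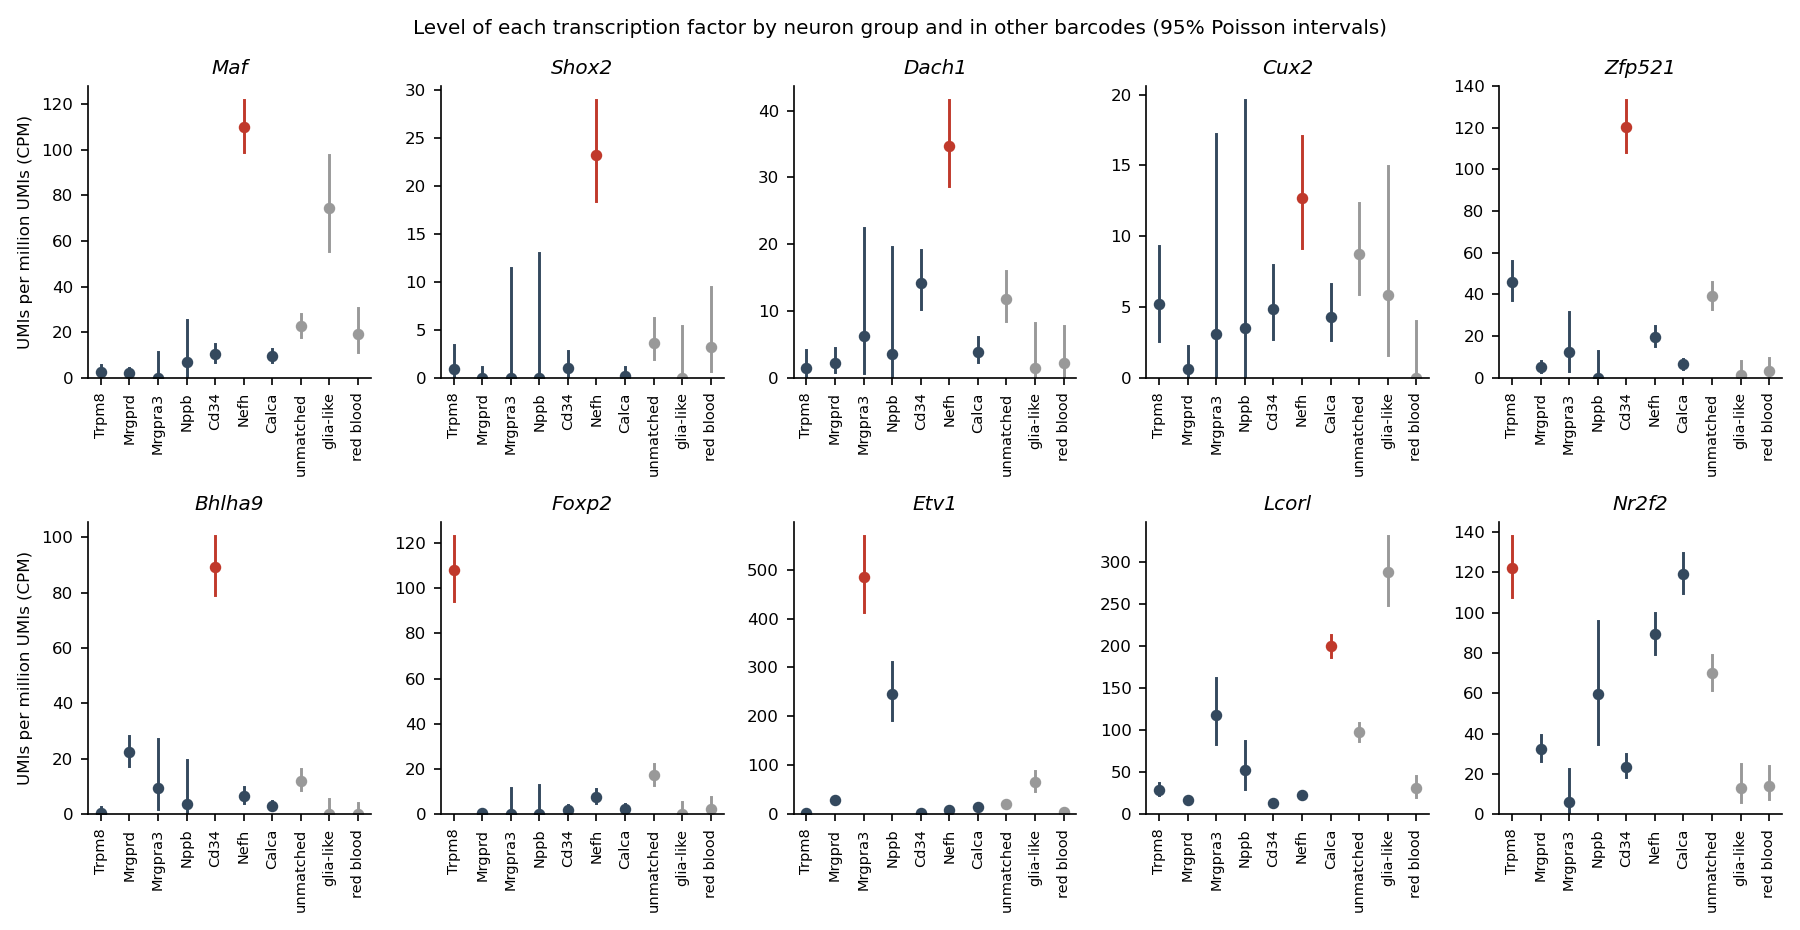
Level of each transcription factor (CPM, linear axes from 0) in the 7 neuron groups, in neurons that matched no group, and in glia-like and red blood cell-like barcodes; points are pooled levels, lines are exact Poisson 95% intervals, and red marks the neuron group with the highest level. Among neuron groups Foxp2, Maf and Shox2 are high in 1 group, Bhlha9 is also seen in Mrgprd (22.3 CPM), Etv1 is high in both itch groups, and the glia-like barcodes have more Lcorl (288 CPM) than any neuron group.

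Large neurofilament-rich neurons (the Nefh group) led for 4 of the 10 genes, Maf, Shox2, Dach1 and Cux2. Most mechanoreceptors for discriminative touch are neurons of this kind. Maf, a basic leucine zipper factor known for its part in the development of touch receptors, reached 110.1 CPM (99.2 to 122) in the Nefh group against 9.81 CPM in all other neurons, a ratio of 11.2 (9.34 to 13.5). A UMI of Maf was found in 149 of 450 Nefh neurons, 33.1% (28.8 to 37.7%).

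Maf was lower in the other 6 groups, and at 22.5 CPM in the neurons that matched none. The next level among the groups was 10.3 CPM (7.07 to 14.6) in the Cd34 group. There, 67 neurons that also met the Nefh rule had 17.1 CPM (10.7 to 25.9) and the other 253 had 5.52 CPM (2.65 to 10.2). The UMIs of Maf in the 67 came from 10 neurons. The 67 were deeper, with a median of 16436 against 4784 UMIs, and whether they are doublets was not tested. The Cd34 level was followed by 9.45 CPM in Calca and 7.04 CPM in Nppb. None of the neighbours in the order below Nefh differed beyond its counting interval. Trpm8 had 2.36 CPM and Mrgprd 2.14 CPM. In the 49 Mrgpra3 neurons no UMI of Maf was found, so that a share with a UMI of up to 6.12% is possible. Of the Maf-positive Nefh neurons, 37 had 3 or more UMIs and the neuron with the most, 25 UMIs, held 6.68% of the group's total. Without that neuron the log2 ratio was 2.88, against 2.96 with it.

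Shox2, a homeobox factor needed for the development of a class of touch neurons, was the sparsest of the 10 genes, with 98 UMIs in all neurons. Of these, 79 were in the Nefh group, 80.6% of its UMIs in 16.2% of the sequencing depth. Its level there was 23.3 CPM (18.4 to 29.0) against 1.08 CPM in all other neurons, a ratio of 21.5 (12.9 to 37.5). It was found in 45 of 450 Nefh neurons, 10% (7.39 to 13.2%). The other groups held 6 UMIs of Shox2 between them, with 3 in Cd34, 2 in Trpm8 and 1 in Calca. No UMI of it was found in 379 Mrgprd neurons, which allows a share with a UMI of up to 0.792%, or in 57 Nppb neurons, which allows 5.26%.

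Dach1, a dachshund-family co-repressor, was less confined. Its Nefh level was 34.7 CPM (28.8 to 41.6), the Cd34 group followed with 14.2 CPM (10.3 to 19.1), and the ratio between these groups was 2.44 (1.72 to 3.54). The remaining groups lay between 1.41 CPM in Trpm8 and 6.19 CPM in Mrgpra3 and could not be ordered beyond counting error. The ratio of Nefh to all other neurons was 5.16 (3.96 to 6.72), and the log2 ratio with 5 CPM added was 1.76. Of the 45 neurons with 2 or more Dach1 UMIs, 29 were in the Nefh group, 64.4% (48.8 to 78.1%).

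Cux2, a cut-homeobox factor, had its highest level in the Nefh group at only 12.7 CPM (9.16 to 17.1). The groups that came next were Trpm8 with 5.19 CPM, Cd34 with 4.85 CPM and Calca with 4.31 CPM, which did not differ from one another beyond counting error. Its ratio of Nefh to all other neurons was 2.71 (1.83 to 3.96). Nearly all Cux2-positive Nefh neurons, 33 of 37, had a single UMI. After every neuron had been thinned to 1000 UMIs, Cux2 remained in 7 of 450 Nefh neurons, 1.56%.

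RefSeq promoter windows of GRCm38.p6 were found for 7 of the 10 genes. The 250 bases before the start are shown for the Nefh genes whose window overlaps no annotated exon, Shox2 and Dach1, so that the letters before 2 genes with alike patterns can be read side by side. The Shox2 window is chr3:66981772-66982021, minus strand, and that of Dach1 is chr14:98169766-98170015, minus strand. Capitals mark matches, on either strand, to any of the RUNX motif TGTGGT, the MAF half-site TGCTGA, the ETS motif CCGGAAG, the forkhead motif TGTTTAC and the GC box GGGCGG. No match overlaps another in the sequences printed.
Shox2: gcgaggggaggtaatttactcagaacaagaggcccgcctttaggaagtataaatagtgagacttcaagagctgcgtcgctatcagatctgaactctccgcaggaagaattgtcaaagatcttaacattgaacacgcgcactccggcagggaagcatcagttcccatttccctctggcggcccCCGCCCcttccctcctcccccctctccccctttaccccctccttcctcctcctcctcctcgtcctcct
Dach1: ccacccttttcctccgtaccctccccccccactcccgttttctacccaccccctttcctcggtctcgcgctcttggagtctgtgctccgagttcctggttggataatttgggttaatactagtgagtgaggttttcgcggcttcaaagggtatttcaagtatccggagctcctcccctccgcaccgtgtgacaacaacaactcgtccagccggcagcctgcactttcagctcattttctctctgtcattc
The Shox2 window holds 1 GC box, written on the reverse strand, a motif present in 32.7% of all 32851 promoter windows of this length. No match to any of the 5 motifs lies in the Dach1 window. The Shox2 window has 11 CpG dinucleotides and that of Dach1 13, against a median of 6 over all windows.

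Within the Nefh group Maf, Shox2 and Dach1 differed further. Nefh neurons were placed with whichever of 3 short marker lists had the most genes seen, largely lists from tables that the study made on these libraries. The lists were headed by Pcdh7 (147 neurons), by Ntrk2, the BDNF receptor TrkB (52), and by Chp2 (85), and 166 neurons had none or a tie. Shox2 was at 35.6 CPM (16.3 to 67.5) in neurons of the Ntrk2 list and at 25.02 CPM (17.4 to 34.8) in those of the Pcdh7 list. In the 85 neurons of the Chp2 list no UMI of it was found, which allows a level of up to 4.05 CPM, although Maf was at 74.3 CPM (56.0 to 96.8) in the same neurons. Shox2 was thus not detectable at this depth in Chp2 neurons, in which Maf was found. For Shox2, neurons of the Ntrk2 list did not differ from the other placed neurons beyond counting error (ratio 2.174, 0.919 to 4.61).

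Dach1 took the same order, with 71.1 CPM (42.2 to 112) in the Ntrk2 list, 39.3 CPM in the Pcdh7 list and 8.11 CPM (2.98 to 17.7) in the Chp2 list. The Chp2 level was 0.184 (0.0652 to 0.419) times that of the other placed Nefh neurons. For Cux2 no difference between the lists was detectable at this depth. It was seen in 0 of 52 neurons of the Ntrk2 list, which allows a share of up to 5.77%, and at 16.4 CPM (10.4 to 24.7) in the Pcdh7 list and 10.8 CPM (4.67 to 21.3) in the Chp2 list. Maf was highest in the Pcdh7 list at 120.8 CPM (103 to 140), and 1.67 (1.26 to 2.23) times the level of the other 2 lists together.

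Dach1 and Shox2 were also found in the same neurons. Both had a UMI in 19 Nefh neurons, and 7.4 are expected if they were independent. Ntrk2 was seen in 31 of the 45 Shox2-positive Nefh neurons, 68.9%, against 25.2% of the Nefh neurons without Shox2. It was likewise seen in 59.5% of Dach1-positive and 23.7% of Dach1-negative Nefh neurons, and in 32.4% of Cux2-positive against 29.3% of Cux2-negative ones. Positive neurons were deeper than negative ones in each case (for Shox2 a median of 7714 against 3972 UMIs), and the part of depth in these counts was not tested. These gene pairs were picked after the levels by group had been seen.

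**Figure D2:**
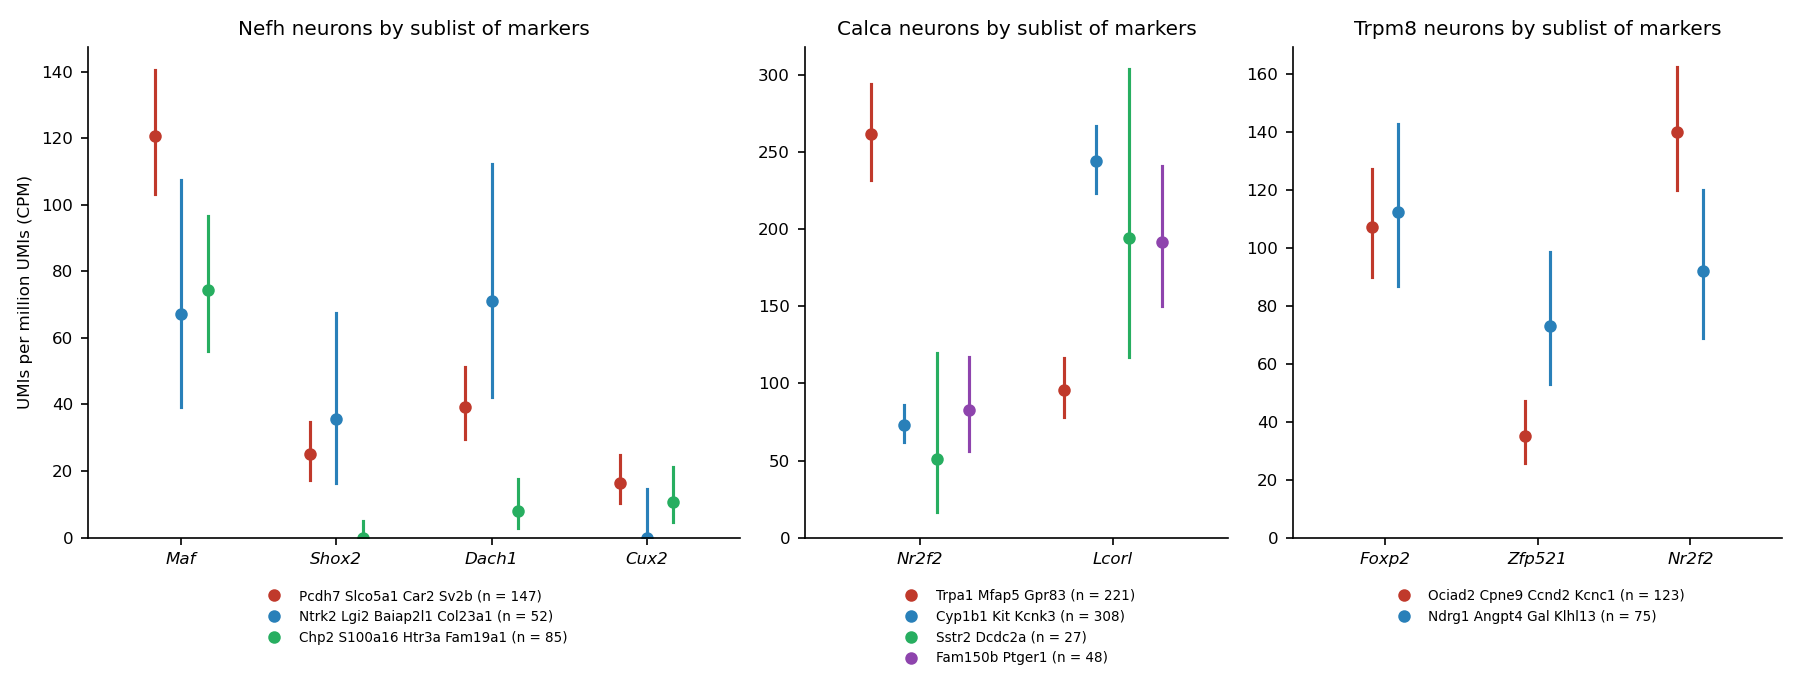
Levels (CPM, linear axes from 0, exact Poisson 95% intervals) in neurons of the Nefh, Calca and Trpm8 groups after placing them by short marker lists, with the number of neurons in each legend entry. No UMI of Shox2 and 8.11 CPM of Dach1 were seen in the Chp2 list of Nefh neurons, and Nr2f2 and Lcorl take opposite orders in the Trpa1 and Cyp1b1 lists of Calca neurons.

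The Cd34 group led for Zfp521 and Bhlha9. Zfp521, a zinc finger factor with many fingers and a known role in neural differentiation, was at 120.5 CPM (109 to 133) in Cd34 neurons against 19.8 CPM in all others, a ratio of 6.09 (5.25 to 7.06). Of the 320 Cd34 neurons, 168 had a UMI of it, 52.5% (46.9 to 58.1%). Zfp521 had a clear second group. The Trpm8 level of 45.7 CPM (37.1 to 55.8) was 2.35 (1.70 to 3.27) times the Nefh level of 19.4 CPM, and was itself exceeded 2.64-fold (2.10 to 3.33) by Cd34. In the Nppb group Zfp521 was in 0 of 57 neurons, which allows a share of up to 5.26%.

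Bhlha9, a basic helix-loop-helix factor best known from limb development, was at 89.2 CPM (79.0 to 100.3) in the Cd34 group and at 8.81 CPM in all other neurons, a ratio of 10.1 (8.30 to 12.4). It was in 118 of 320 Cd34 neurons, 36.9% (31.6 to 42.4%), and 35 of these had 3 or more UMIs. The only other group above 10 CPM was Mrgprd with 22.3 CPM (17.5 to 28.1), and the ratio of Cd34 to Mrgprd was 3.996 (3.08 to 5.25). The Trpm8 group, second for Zfp521, had 1 UMI of Bhlha9 in 244 neurons.

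Both Cd34 genes were thus shared with another group, but with a different one, and neurons of the Cd34 group often held both. Zfp521 and Bhlha9 were seen together in 72 Cd34 neurons, and 62.0 are expected if they were independent. Positive neurons were deeper, with medians of 9385 against 3990 UMIs for Zfp521 and 9253 against 4504 for Bhlha9, and the part of depth in this count was not tested. Within Cd34 neurons their levels did not differ beyond counting error between the Scin and Wfdc2 list (30 neurons) and the Fam19a4 and Cdh9 list (159 neurons). The ratios were 1.28 (0.839 to 1.90) for Zfp521 and 0.779 (0.424 to 1.33) for Bhlha9. The 250 bases before the start of Bhlha9, a gene with a window free of annotated exons (chr11:76672220-76672469, plus strand, GRCm38.p6), hold 1 GC box, shown in capitals, and no match to the other 4 motifs.
Bhlha9: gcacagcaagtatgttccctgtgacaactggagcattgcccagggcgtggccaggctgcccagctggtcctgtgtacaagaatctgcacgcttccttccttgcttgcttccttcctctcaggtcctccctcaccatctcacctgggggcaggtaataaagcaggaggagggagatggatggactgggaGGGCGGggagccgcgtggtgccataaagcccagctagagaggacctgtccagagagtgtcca
The Bhlha9 window has 5 CpG dinucleotides, and 49.7% of all windows have as many or fewer.

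The cold-sensing Trpm8 neurons led for Foxp2. This forkhead repressor, known for its role in vocal learning circuits, was at 108 CPM (94.4 to 123) in the Trpm8 group against 5.64 CPM in all other neurons, a ratio of 19.2 (15.2 to 24.3). A UMI of it was found in 119 of 244 Trpm8 neurons, 48.8% (42.3 to 55.2%). Nefh neurons came second with 7.66 CPM (5.001 to 11.2), which was 3.11 (1.51 to 6.76) times the Calca level of 2.46 CPM. Of the 26 UMIs of Foxp2 in Nefh neurons, 20 were in the 166 that no marker list placed, at 19.9 CPM (12.2 to 30.8). Placed Nefh neurons had 3.95 CPM in the Ntrk2 list, 3.57 CPM in the Pcdh7 list and 0 UMIs in the Chp2 list. The Mrgprd group had 1 UMI in 379 neurons, and Mrgpra3 (0 of 49) and Nppb (0 of 57) had none, which allows shares of up to 6.12% and 5.26%.

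Within the Trpm8 group no difference in Foxp2 between subtypes was found beyond counting error. Its level was 107 CPM (89.96 to 127) in the 123 neurons of the Ociad2 and Cpne9 list and 112 CPM (86.9 to 143) in the 75 neurons of the Ndrg1 and Gal list, a ratio of 0.955 (0.706 to 1.30). Zfp521 and Nr2f2 did differ. Zfp521 was lower in the Ociad2 list, with 35.3 CPM against 73.2 CPM in the Gal list, a ratio of 0.482 (0.309 to 0.751). Nr2f2 was higher there, with 140.2 CPM against 92.0 CPM, a ratio of 1.53 (1.12 to 2.11).

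Etv1, an ETS-domain factor known from proprioceptive neurons of the spinal ganglia, was high in both itch groups. Its level was 486 CPM (413 to 568) in the Mrgpra3 group and 247 CPM (192 to 311) in the Nppb group, the former 1.97 (1.48 to 2.65) times the latter. Mrgprd neurons followed at 28.1 CPM (22.7 to 34.5), and the ratio of Nppb to Mrgprd was 8.77 (6.33 to 12.1). The lowest levels were 3.23 CPM in Cd34 and 2.36 CPM in Trpm8. Etv1 was in 35 of 49 Mrgpra3 neurons, 71.4% (56.7 to 83.4%), and in 34 of 57 Nppb neurons, 59.6% (45.8 to 72.4%).

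Which of the itch groups is higher depends on how UMIs are weighed. A single Mrgpra3 neuron held 23 UMIs of Etv1, 14.6% of that group's total. When each gene was counted at most once per neuron, Nppb had the higher level. After thinning every neuron to 1000 UMIs, 38.8% of Mrgpra3 neurons and 29.8% of Nppb neurons kept a UMI of Etv1, and their binomial intervals overlapped (25.2 to 53.8% and 18.4 to 43.4%).

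The Etv1 seen in Mrgprd neurons was held by few of them. The 12 Mrgprd neurons that also met the Mrgpra3 or Nppb rule had 438 CPM (337 to 561), and the other 367 had 9.27 CPM (6.21 to 13.3). The median depth of the 12 was 10893 UMIs, against 5152 in the rest, and no caller was run to say whether they are doublets. The window before the first RefSeq start of Etv1 (chr12:38779832-38780081, plus strand, GRCm38.p6) lies within the GENCODE gene but in no annotated exon. It holds 1 RUNX motif, a motif found in 14.05% of all windows.
Etv1: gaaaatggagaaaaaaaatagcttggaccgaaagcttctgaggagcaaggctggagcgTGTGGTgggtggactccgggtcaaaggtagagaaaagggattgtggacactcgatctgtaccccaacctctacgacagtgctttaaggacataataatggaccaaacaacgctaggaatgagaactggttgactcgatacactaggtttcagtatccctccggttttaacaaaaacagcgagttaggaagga
This was the only match to the 5 motifs in it, and 9 CpG dinucleotides were counted.

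Peptidergic nociceptors (the Calca group) led for Lcorl, a nuclear receptor co-repressor-like factor whose gene is known for its link to body size. Its Calca level was 199.6 CPM (187 to 213) against 39.4 CPM in all other neurons, a ratio of 5.07 (4.58 to 5.61). It was in 453 of 916 Calca neurons, 49.5% (46.2 to 52.7%). Second was Mrgpra3 with 118 CPM (83.2 to 161), of which 13 of 38 UMIs came from 1 neuron, followed by Nppb with 52.8 CPM (29.6 to 87.1), of which 8 of 15 came from 1 neuron. The other 4 groups, from 29.2 CPM in Trpm8 to 12.9 CPM in Cd34, could not be separated from their neighbours beyond counting error. No group was free of Lcorl.

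Nr2f2, the orphan nuclear receptor COUP-TFII, had no single leading group. Levels were 122 CPM (108 to 138) in Trpm8 and 119 CPM (109.8 to 129) in Calca, a ratio of 1.024 (0.881 to 1.19). After thinning to 1000 UMIs the log2 ratio of Trpm8 over all other neurons fell from 0.75 to -0.02, and Nr2f2 remained in 7.38% (4.43 to 11.4%) of Trpm8 and 10.9% (8.97 to 13.1%) of Calca neurons. Nefh followed with 89.2 CPM (79.5 to 99.8). The low groups were Mrgprd with 32.4 CPM, Cd34 with 23.6 CPM and Mrgpra3 with 6.19 CPM. Of the 834 neurons with a UMI of Nr2f2, 117 were Trpm8 neurons, 14.03% (11.7 to 16.6%).

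Nr2f2 also differed inside the groups. Among Calca neurons, those of the Trpa1, Mfap5 and Gpr83 list (221 neurons) had 262 CPM (232 to 294), which was 3.55 (2.94 to 4.29) times the 73.8 CPM of the other placed Calca neurons. The Cyp1b1, Kit and Kcnk3 list (308 neurons) had 73.3 CPM (62.1 to 85.9). Among Mrgprd neurons, 60 of the Agtr1a and Mrgpra1 list had 110.5 CPM (81.5 to 147) against 14 CPM (9.38 to 20.1) in 197 of the Otoa, Prkcq and Mrgprb5 list, a ratio of 7.89 (4.88 to 13.0). Its 48 UMIs in the Agtr1a list came from 15 neurons. Among Nefh neurons Nr2f2 was at 109.4 CPM in the Pcdh7 list and 33.8 CPM in the Chp2 list.

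Lcorl took the opposite order within Calca neurons. It was at 96.0 CPM (78.3 to 116) in the Trpa1 list and at 245 CPM (224 to 267) in the Cyp1b1 list, with 194.6 CPM and 192 CPM in the lists headed by Sstr2 and Fam150b. The Trpa1 level was 0.409 (0.328 to 0.505) times that of the other placed Calca neurons. Zfp521 joined Nr2f2 here, with 21 of its 23 UMIs in placed Calca neurons falling in the Trpa1 list, and it was in 0 of 308 neurons of the Cyp1b1 list, which allows a share of up to 0.974%. The neurons of the Fam150b list carried Etv1 at 45.3 CPM (26.4 to 72.5), 8.13 (3.94 to 16.7) times the level of the other placed Calca neurons, and Maf at 32.0 CPM, 4.92 (2.21 to 10.5) times it.

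Neurons that matched no group served as cells that the group rule had not used, although the genes themselves had been chosen on these libraries. They were placed by other markers of the groups, again mostly from tables made on these libraries, and 445 of the 1440 could not be placed. Foxp2 was at 89.7 CPM (60.5 to 128) in 101 neurons with cold markers and 6.95 CPM in those placed elsewhere, a ratio of 12.9 (6.81 to 25.3). In 139 neurons with Cd34-group markers, Zfp521 was at 152 CPM, 7.50 (5.03 to 11.3) times the level elsewhere, and Bhlha9 at 53.8 CPM, 17.1 (7.06 to 47.4) times it. These 139 neurons held no UMI of Cd34. As the genes and most of the placing markers were chosen on these libraries, the ratios are a description and no independent check.

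In 189 unmatched neurons with Nefh-group markers, Maf was at 73.8 CPM, 10.9 (5.83 to 21.6) times the level elsewhere, and Dach1 at 31.6 CPM, 4.36 (2.07 to 9.28) times it. The intervals of Shox2, with 5 UMIs and a ratio of 4.54 (0.976 to 22.9), and of Cux2, with 4 UMIs and a ratio of 0.854 (0.209 to 2.62), both included a ratio of 1. Lcorl was at 191 CPM (167 to 218) in 496 neurons with Calca-group markers, 3.77 (2.89 to 4.97) times the level elsewhere, and Nr2f2 at 92.8 CPM, 1.58 (1.18 to 2.13) times it. All 7 neurons with Nppb-group markers had Etv1, with 8 UMIs in all. Etv1 was also at 40.4 CPM (23 UMIs) in the neurons with Nefh-group markers, 2.69 (1.499 to 4.77) times the level elsewhere, whereas the Nefh group itself had 8.54 CPM. Unmatched neurons carried more glia, red blood cell and pituitary RNA than any of the groups, but not more endothelial RNA. The summed level of 7 glia genes was 8907 CPM in them and 95.1 to 526 CPM in the groups. Glia-like barcodes had 74.5 CPM of Maf and 65.7 CPM of Etv1, but 1.46 CPM of Dach1. Lcorl was at 87.8 CPM in the unmatched neurons with Nefh-group markers, against 22.4 CPM in the Nefh group. Its level in glia-like barcodes was 288 CPM. The part of glia RNA in the values of unmatched neurons was not tested.

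**Figure D3:**
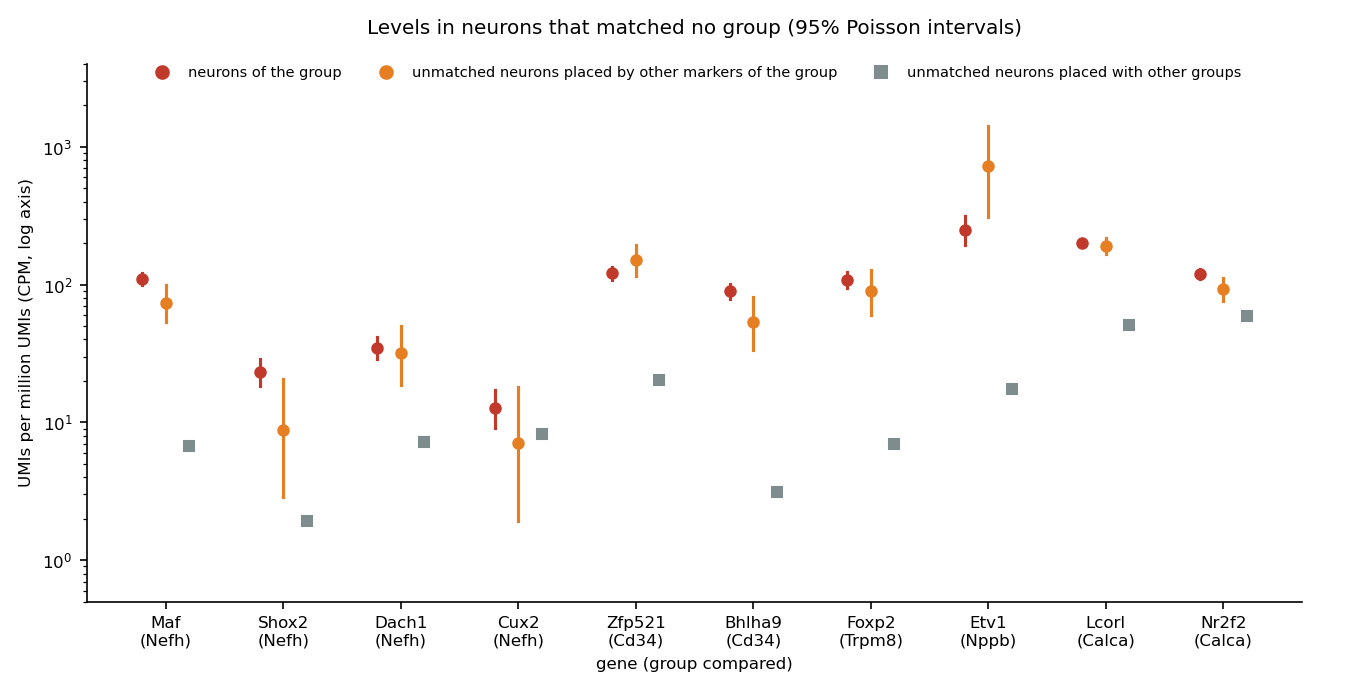
Levels on a log axis (CPM) of each gene in neurons of 1 group (red), in unmatched neurons placed by other markers of that group (orange) and in unmatched neurons placed with other groups (grey); lines are exact Poisson 95% intervals, and the group compared is named under each gene. For Etv1 the Nppb group and for Nr2f2 the Calca group was used; for Cux2 the orange point (7.03 CPM) lies below the grey one (8.23 CPM).

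At the edges of the group rule, neurons with 2 UMIs of Trpm8 had 97.5 CPM of Foxp2 (92 neurons), and those with 1 UMI, just outside, 65.9 CPM (145 neurons), with overlapping intervals. With 1 UMI of Cd34, Zfp521 was at 94.2 CPM and Bhlha9 at 88.1 CPM (133 neurons). With none they were at 20.0 CPM and 6.68 CPM. At 1 UMI of Mrgpra3, Etv1 was at 298 CPM (182 to 461, 16 neurons), under the group's 486 CPM, and with none at 17.03 CPM. At 2 and at 1 UMI of Nppb, Etv1 was at 139 CPM (23 neurons) and 43.3 CPM (26 neurons). At the Nefh threshold Maf was at 22.9 CPM with 5 UMIs (55 neurons) and 38.5 CPM with 4 (78 neurons), both under the group's 110.1 CPM. Lcorl was at 114 CPM with 5 UMIs of Calca (10 neurons) and 68.3 CPM with 4 (11 neurons), from 4 and 2 UMIs.

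Free RNA can put a UMI of a gene into a cell that does not express it, so shares were set beside those in other barcodes. After thinning every barcode to 1000 UMIs, Foxp2 remained in 11.1% of Trpm8 neurons, while no glia-like barcode (of 321) and 1 red blood cell-like barcode (of 577) kept a UMI of it. Zfp521 and Bhlha9 remained in 10% of Cd34 neurons each, and Shox2 in 2.89% and Dach1 in 3.33% of Nefh neurons. Bhlha9 and Shox2 were in none of the 321 glia-like barcodes (median 1643 UMIs), which allows a share of up to 0.935%. For these 5 genes the interval of the leading neurons lay above those of glia-like and red blood cell-like barcodes. Set beside pituitary-like, endothelial-like, olfactory neuron-like and central neuron-like barcodes as well, this held for Foxp2 alone of the 5. How often it holds for genes outside the 10 was not counted, so these numbers are a description only. Dach1 remained in 4.76% (2.97 to 7.19%) of pituitary-like and 4.63% (1.52 to 10.5%) of endothelial-like barcodes, with intervals that overlapped that of Nefh neurons (1.88 to 5.44%). Overlaps with the leading group were also found for Shox2 in pituitary-like (0.907%, 0.248 to 2.31%) and olfactory neuron-like barcodes, while the 108 endothelial-like and 58 central neuron-like barcodes held no UMI of it and were too few to separate. They were also found for Zfp521 in endothelial-like (3.70%, 1.018 to 9.21%) and central neuron-like barcodes, and for Bhlha9 in the 58 central neuron-like barcodes (1.72%, 0.0436 to 9.24%). For Maf, with 10.9% (8.17 to 14.1%) of thinned Nefh neurons and 6.54% (4.10 to 9.83%) of glia-like barcodes, and for Cux2, with 1.56% and 0.312%, the intervals overlapped.

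Lcorl and Maf were not confined to neurons. Thinned to the same depth, Lcorl was in 23.1% (18.6 to 28.1%) of glia-like barcodes and 17.4% (15.0 to 20.0%) of Calca neurons, and its glia-like level of 288 CPM (249 to 331) exceeded that of every neuron group. Maf was at 74.5 CPM (55.5 to 97.9) in glia-like barcodes, below its Nefh level and above all other neuron groups. Red blood cell-like barcodes gave 31.2 CPM of Lcorl and 19.4 CPM of Maf. Calca neurons had 338 CPM of the 7 glia genes together, against 135289 CPM in glia-like barcodes. Leaving out the neurons with 3 or more of those genes kept Calca as the group with most Lcorl.

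Relatives of the 10 genes were then set beside them. Of 18 paralogs listed for the factors, 17 were in the table and 10 had the 50 UMIs needed, and none of the 10 was called, where 3.12% of all genes tested were. Those named here were chosen after their values were seen. Their median log2 ratio was 0.51, and that of all genes tested was 0.52. The median of the 10 factors, 2.28, was fixed in part by their choice on these levels and is not compared. Foxp1 had a ratio of 1.37 (1.06 to 1.74) over the rest in its highest group, Mrgprd, Cux1 one of 1.62 (1.36 to 1.91), also in Mrgprd, and Nr2f1 one of 1.31 (0.675 to 2.39) in Nefh.

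Of 63 other regulators of the sensory lineage, 57 were tested and 7 were called (12.3%, beside 3.12% of all genes tested), with a median log2 ratio of 0.96. Runx3, the runt factor of large sensory neurons, was led by Nefh with 17.4 CPM against 0.399 CPM, and Rora, an orphan nuclear receptor, by Trpm8 with 136 CPM against 25.3 CPM. Pou4f2, a POU factor, and Tox3, an HMG-box factor, were led by Cd34 with 144 against 17.8 CPM and 196 against 31.0 CPM. Zeb2 (Calca, 186 against 38.3 CPM), Casz1 (Mrgprd, 238 against 55.6 CPM) and Insm2 (Mrgpra3, 77.4 against 15.4 CPM) complete the 7. Among those not called, the pan-sensory factors Isl1, Pou4f1 and Prdm12 (also picked after the fact) had ratios from 1.74 to 2.58.

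Among the neurotrophic factor receptors, 5 of the 10 tested were called, beside 3.12% of all genes tested. Ntrk2 was led by Nefh, Gfra1 by Mrgpra3, Gfra2 by Mrgprd, and Gfra3 and Kit by Calca. In the leading groups of the listed factors these genes were seen in the same neurons. The pairs given were chosen after the calls were known. Rora was in 58.8% of Foxp2-positive and 33.6% of Foxp2-negative Trpm8 neurons, Pou4f2 in 70.2% of Zfp521-positive and 33.55% of Zfp521-negative Cd34 neurons, and Kit in 51.2% of Lcorl-positive and 27.2% of Lcorl-negative Calca neurons. The gap was narrower for Tox3, in 72.0% of Bhlha9-positive and 60.4% of Bhlha9-negative Cd34 neurons. Gfra3 was in 76.4% of Lcorl-positive and 62.2% of Lcorl-negative Calca neurons. Positive neurons were deeper, with medians of 8764 against 4263 UMIs for Foxp2, 9385 against 3990 for Zfp521 and 5478 against 2676 for Lcorl. As above, the part of depth in these shares was not tested.

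**Figure D4:**
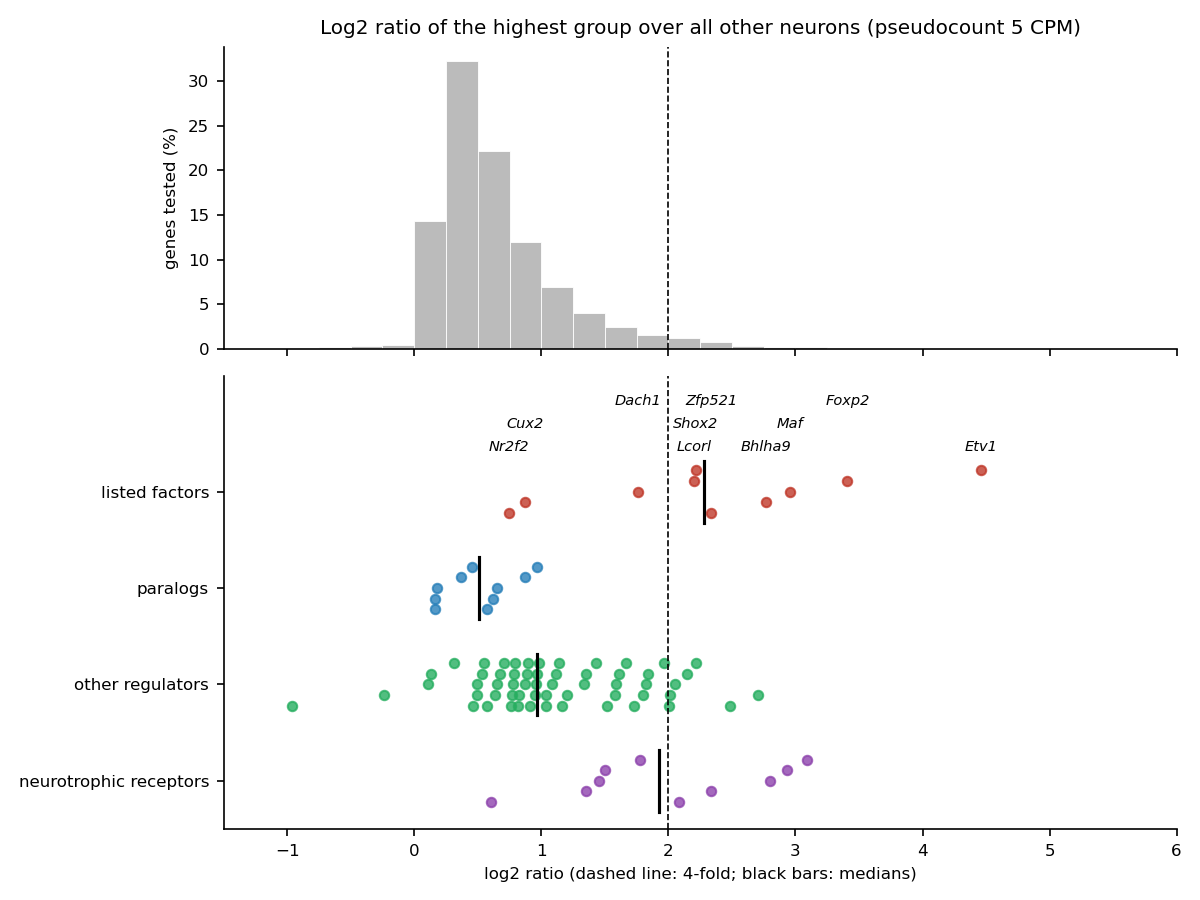
Log2 ratio of the highest group over all other neurons (5 CPM added to both). Top, share of the 12100 genes tested in bins of a log2 ratio; bottom, each tested gene of 4 lists as a point, with the median as a black bar and the 4-fold limit dashed; 7 of the 10 listed factors, which were chosen on this measure, lie right of the limit, and 0 of 10 paralogs do.

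Some neurons held more than 1 of the 10 factors. At least 1 was seen in 57.8% of neurons and at least 2 in 22.2%. Shares of neurons with any ran from 39.3% in the Mrgprd group, which led for none of the 10, to 81.6% in the Mrgpra3 group (52.96% of glia-like barcodes), and after thinning from 7.65% in Mrgprd to 49.0% in Mrgpra3. How often a pair was seen together over all neurons follows in part from the group levels by which the genes were chosen, so the counts are given with no comparison. Foxp2 shared 1 neuron with Bhlha9, 3 with Maf and 64 with Zfp521, which had its second highest level in the Trpm8 group. Maf shared 31 neurons with Shox2 and 35 with Cux2, both of them also led by the Nefh group.

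The genes whose levels over the 7 groups were most like each factor were named by the highest Pearson r of log2(CPM + 5) among 10749 genes, a description over 7 points that share 1 pool of cells. For Foxp2 they were Tox (r = 0.994), Efr3a (0.992) and Slc34a2 (0.991). For Maf they included Lgmn (0.982) and Pip5kl1 (0.965). Shox2 was most like the neuropeptide gene Tac2 (0.997), Spp1 (0.993) and Ntng1 (0.983), Dach1 like Cbln2 (0.980), Frrs1l (0.970) and Ptgfr (0.959), and Cux2 like Pcsk1 (0.985), Tchp (0.984) and Vsnl1 (0.979). For Bhlha9 the list was Mvb12b (0.989), Grhl3 (0.974) and Wfdc2 (0.968).

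For Etv1 the genes most alike were Thop1 (0.993), Fam120a (0.991) and Vps36 (0.979), and for Zfp521 Gal3st1 (0.970), Rnf13 (0.965) and Smim15 (0.955). For Nr2f2 they were Atg10 (0.978), Fkbp2 (0.970) and Sh3bp5 (0.958), and for Lcorl Ehmt2 (0.974), Zfr2 (0.972) and Vkorc1 (0.971). Thop1, for example, was at 55.7 CPM in the Mrgpra3 group and 27.1 CPM in all other neurons, whereas Tox was at 27.3 CPM in Trpm8 and 2.82 CPM elsewhere. A high r over 7 groups thus does not mean an equal fold.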

How the data were processed

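Trigeminal ganglion cells of wild-type mice from 9 Dropseq runs were deposited as 1 table of raw UMI counts. Per the study's methods and the submitters' processing notes, which name bcl2fastq 2.17, STAR 2.5.3a, Seurat 1.4.0.16 and mm10, the authors mapped reads to the mouse transcriptome, counted distinct transcripts per gene and barcode and kept barcodes above a UMI minimum, so the deposited counts are not normalized and cells under 1000 UMIs are not in the table. Counting by UMI removes PCR copies. Whether strand was used in counting is not given in the sources used here.

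Neurons were selected and grouped by the UMI thresholds given with the groups, with Python 3.11.15, numpy 2.4.6, scipy 1.17.1, pandas 2.3.3 and matplotlib 3.10.9. UMIs were summed per group and divided by the group's total (CPM). With 1 pooled sample there is no test. Intervals are at 95%, and a count of 0 was given a limit of 3 counts. Genes with at least 50 UMIs in neurons were compared with all other neurons after adding 5 CPM. Neurons were also thinned once to 1000 UMIs, and none was shallower. No doublet caller was run.

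The 10 genes, the marker lists and the lists of relatives were chosen with earlier results of these data known. Named are the 10 genes, the called genes of 3 lists (paralogs, sensory regulators, neurotrophic factor receptors), a few others said to be chosen after their values were seen, and, for each of the 10, the 3 genes of at least 100 UMIs with the highest Pearson r over the 7 groups. Some genes that these rules name are not reported here. Glia-like barcodes had under 3 neuronal genes and at least 3 of 7 glia genes, among them Mbp, Fabp7, Sox10, Mag and Mog. Red blood cell-like barcodes had under 3 neuronal genes and at least 10% hemoglobin UMIs. Alternatives were other weightings of neurons, thresholds, filters and pseudocounts, and 4 chosen after seeing the data (leaving out neurons with olfactory or central markers, neurons with glia markers, columns that share a barcode, and the neuron with the most UMIs of the gene). The calculations were tested on simulated data.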

Additional observations from a re-analysis of the deposited data

Results flagged for a closer look

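All 10 genes had some UMIs in barcodes outside the neurons, which enter no comparison of the groups. For 5 of them the level in such a class of barcodes lay above that over all neurons, with intervals that did not overlap. The share of all genes for which this holds was not counted, so the number is a description only. Lcorl was at 287.7 CPM in 321 glia-like barcodes. Maf was at 74.47 CPM and Etv1 at 65.71 CPM in the same glia-like barcodes. Nr2f2 was at 132.5 CPM and Dach1 at 53.98 CPM in 108 endothelial-like barcodes, and Dach1 was at 41.55 CPM in 441 pituitary-like barcodes. Maf was at 88.06 CPM in 58 central neuron-like barcodes, with all of its 16 UMIs in 1 barcode. Etv1 was at 39.86 CPM in 163 olfactory neuron-like barcodes, with 36 of its 39 UMIs in 1 barcode.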

How the results depend on the processing

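Each gene's log2 ratio of the leading group over all other neurons was recomputed under 14 alternatives. Of the 140 values, 101 stayed within the counting interval, 38 moved beyond it and 1 changed sign. The leading group changed in 8, which were 6 of Nr2f2 (to Calca), 1 of Etv1 (to Nppb, counting a gene once per neuron) and 1 of Cux2 (to Mrgpra3, after thinning). The change of Cux2 rests on 1 of 49 Mrgpra3 neurons, 2.04% (0.0517 to 10.85%), against 7 of 450 Nefh neurons, 1.56% (0.628 to 3.18%). The cause of these moves was not tested. With a mean over neurons of each neuron's CPM, the ratios were 3.04 for Foxp2, 2.75 for Maf, 2.07 for Zfp521 and 1.65 for Lcorl. With neurons thinned to 1000 UMIs they were 3.14 for Foxp2, 1.87 for Zfp521, 3.00 for Bhlha9, 1.66 for Lcorl and -0.02 for Nr2f2, the change of sign. Raising every threshold by 1 UMI gave 2.45 for Bhlha9 and 1.90 for Lcorl. Keeping only neurons that met exactly 1 rule in the groups gave 2.77 for Foxp2, 3.88 for Etv1, 2.12 for Zfp521 and 2.5 for Bhlha9. Counting a gene once per neuron gave 2.71 for Foxp2, 2.08 for Maf, 2.88 for Etv1, 1.5 for Zfp521, 0.48 for Nr2f2, 1.35 for Dach1, 1.87 for Bhlha9, 1.67 for Lcorl and 1.60 for Shox2. A pseudocount of 1 CPM gave 4.04 for Foxp2, 3.36 for Maf, 4.73 for Etv1, 2.55 for Zfp521, 2.21 for Dach1, 3.20 for Bhlha9, 3.54 for Shox2 and 1.27 for Cux2. Leaving out neurons that matched no group gave 3.83 for Foxp2, 3.31 for Maf, 2.65 for Zfp521 and 2.88 for Lcorl. Leaving out the 180 neurons over 20000 UMIs gave 4.07 for Etv1, 2.01 for Lcorl and 1.88 for Shox2. At a 2-fold limit, 2189 genes were called in place of 378, and 8 of the 10 genes reached it. At 4-fold, thinning to 1000 UMIs gave 256 called genes of 8636 tested, with 5 of the 10 genes past the limit, and raised thresholds gave 362, with 6 past it, in place of 7. The counts of the 10 genes do not apply the minimum of 50 UMIs.

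No paired analysis was possible because barcodes do not name their run, and leaving out runs in turn was not run for the same reason. The depth of these cells limits Shox2 and Cux2 most, with 98 and 125 UMIs in all neurons.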
